A study of Mus musculus with 35 samples.

Results

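The 10 glutathione S-transferase genes Gsta1, Gsta2, Gsta3, Gsta4, Gstm1, Gstm2, Gstp1, Gstt1, Mgst1 and Mgst3 were followed through 35 RNA-Seq libraries of mouse cardiac fibroblasts (CFs) and mouse hearts. They were taken by symbol, each as 1 row of the 55487 genes counted in every library. CFs were primary cells grown from adult mice (8 weeks of age). They were transfected with a control siRNA (si-NC) or with 1 of 2 siRNAs against 4930523C07Rik (si-IAMP-1 and si-IAMP-2). 4930523C07Rik is the mouse gene of the micropeptide IAMP. Each siRNA was used in untreated CFs, in CFs given IL-17 for 24 h, and in CFs given TGF-β, with 3 libraries in each of the 9 groups. The siRNAs were given for 24 h in the IL-17 experiment. Their duration in other CFs, that of TGF-β, and the strain and genotype of the CF donors were not given in the sources used here. Hearts were from 8-week-old C57BL/6 mice with a germline IAMP frameshift (KO, 4 libraries) or from heterozygous mice (Het, 4 libraries), so that the control hearts carried 1 edited allele. The comparisons ask how these genes differ when IAMP is reduced in resting or stimulated CFs and when it is absent from the heart.

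Glutathione S-transferases join the tripeptide glutathione to electrophilic compounds, which makes them more soluble and marks them for export. The cytosolic enzymes are grouped by sequence: Gsta1 to Gsta4 belong to the alpha class, Gstm1 and Gstm2 to the mu class, Gstp1 to the pi class and Gstt1 to the theta class. Gsta4 is known for conjugating 4-hydroxynonenal, a product of lipid peroxidation. Mgst1 and Mgst3 are microsomal enzymes of a separate, membrane-bound family, which also act as glutathione peroxidases. Many of the cytosolic genes are known targets of the transcription factor NRF2, which binds antioxidant response elements.

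In the GENCODE annotation of GRCm38, Gsta1 (ENSMUSG00000074183) lies at chr9:78230656-78242684 on the plus strand, Gsta2 (ENSMUSG00000057933) at chr9:78331018-78355788 on the minus strand and Gsta4 (ENSMUSG00000032348) at chr9:78182774-78209349 on the plus strand. Gsta3 (ENSMUSG00000025934) is at chr1:21240589-21265661, where it overlaps Gm28836 on the opposite strand without sharing an exon. The mu-class genes are neighbours on the minus strand, Gstm2 (ENSMUSG00000040562) at chr3:107981702-107986453 and Gstm1 (ENSMUSG00000058135) at chr3:108012255-108017973. Gstp1 (ENSMUSG00000060803) is at chr19:4035407-4037985, Gstt1 (ENSMUSG00000001663) at chr10:75783813-75798584, Mgst1 (ENSMUSG00000008540) at chr6:138140316-138156755 and Mgst3 (ENSMUSG00000026688) at chr1:167371966-167393841.

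Gsta1 and Gsta2 are near copies of each other and of Gm3776 and Gm10639, other alpha-class genes of the same region. Over the coding sequence, Gsta1 was identical to Gm3776 at 99.7% of aligned bases and to Gsta2 at 97.5%. The longest coding stretch common to all 4 genes had 171 bases and spans 3 exons (Gsta1 coding bases 26 to 196; chr9:78232265-78232326, chr9:78235084-78235135 and chr9:78235930-78235986). It is shown because a read from it cannot be given to 1 gene.
Gsta1, Gsta2, Gm3776 and Gm10639: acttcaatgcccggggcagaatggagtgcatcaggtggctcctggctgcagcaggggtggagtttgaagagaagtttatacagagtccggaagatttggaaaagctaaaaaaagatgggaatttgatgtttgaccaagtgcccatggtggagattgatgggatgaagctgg

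The coding sequence had 672 bases in Gsta1 and Gm3776 and 669 in Gsta2 and Gm10639, and single bases also differed along it. The 60 bases of 1 exon with the most such positions, coding bases 469 to 528, hold 6 of them, printed in capitals. Here Gsta1 (chr9:78241581-78241640, plus strand) and Gm3776 (chr9:78268064-78268123, plus strand) were the same, and both differed from Gsta2 (chr9:78332105-78332164, minus strand) and Gm10639 (chr9:78304426-78304485, plus strand).
Gsta1: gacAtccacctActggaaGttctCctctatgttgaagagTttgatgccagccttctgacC
Gm3776: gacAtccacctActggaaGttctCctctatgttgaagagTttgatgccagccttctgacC
Gsta2: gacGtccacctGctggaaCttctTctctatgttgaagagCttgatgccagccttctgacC
Gm10639: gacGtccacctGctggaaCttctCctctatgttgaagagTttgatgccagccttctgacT

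Of all 50-base stretches in the annotated transcripts, 90.5% of those of Gsta1 and 49.8% of those of Gsta2 also occurred in another gene. The share was 33.7% for Gstp1, all of it held by Gstp2, and 18.9% for Gstm1, 14.1% being common with the pseudogene Gstm2-ps1. It was 5.65% for Gstm2, 0.273% for Gsta3, and 0% for Gsta4, Gstt1, Mgst1 and Mgst3. The values of Gsta1 and Gsta2 are therefore uncertain as values of single genes. For several comparisons the sum of the 4 copies is also given below.

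RefSeq promoters (GRCm38.p6) were found for 9 of the 10 genes, Gsta4 being the exception. The 250 bases before each start were searched on both strands for TGACNNNGC, the core of the antioxidant response element. It occurred in 10.2% of 32851 promoters and at 2 of the 9 genes. Both promoters that hold it are shown, with the match in capitals. The second Mgst1 promoter and those of the other 7 genes, Gsta1 included, held none. With 9 genes there are too few to set their share against that of all promoters, which counts single promoters. In Gsta3 (chr1:21240335-21240584, plus strand) it begins 121 bases before the start, and in the upstream Mgst1 promoter (chr6:138140277-138140526, plus strand) 56 bases before it, on the opposite strand. A match describes the letters in the window and is not a measured site.
Gsta3 promoter: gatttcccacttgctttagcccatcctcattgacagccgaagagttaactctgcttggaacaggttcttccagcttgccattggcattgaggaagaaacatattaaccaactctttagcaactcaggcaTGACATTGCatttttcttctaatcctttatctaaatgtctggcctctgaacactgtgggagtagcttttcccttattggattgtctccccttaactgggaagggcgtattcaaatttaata
Mgst1 promoter: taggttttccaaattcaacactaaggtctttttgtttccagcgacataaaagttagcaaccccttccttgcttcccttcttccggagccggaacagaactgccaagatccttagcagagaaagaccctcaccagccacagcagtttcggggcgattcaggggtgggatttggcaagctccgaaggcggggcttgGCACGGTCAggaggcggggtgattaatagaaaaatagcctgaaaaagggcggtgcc

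The deposited values of the CF libraries summed to 104139670 to 119232309 estimated counts and those of hearts to 23497027 to 23857313 counts. Levels are given as CPM, that is counts scaled to library size after TMM normalization. 4930523C07Rik was 23.5 ± 1.98 CPM (SD, n = 3) in untreated si-NC CFs, 3.01 ± 0.494 with si-IAMP-1 and 1.84 ± 0.0635 with si-IAMP-2. It fell likewise in IL-17 CFs (18.7 ± 2.02 to 2.61 ± 0.267 and 1.75 ± 0.108) and in TGF-β CFs (20.4 ± 1.92 to 4.34 ± 0.297 and 3.26 ± 0.429). In hearts the level was 17.0 ± 1.25 CPM in Het and 16.1 ± 0.977 in KO (n = 4 each), which does not check a frameshift that leaves the transcript in place. All 9 fibroblast markers were present in every CF library, with a sum of 11713 to 20371 CPM. Of 8 cardiomyocyte markers, only Tnnt2 passed 1 CPM in CFs (at most 97.3), the other 7 reaching at most 0.817, whereas the sum in hearts was 43248 to 46786. Transcripts of 8 hepatocyte markers were summed after scaling to library size without TMM. They came to 27.1 to 103 CPM in 5 CF libraries and to 0.428 to 2.87 in the other 22. The 5 were untreated si-NC 3, IL-17 si-NC 1 and 3, TGF-β si-IAMP-1 2 and TGF-β si-IAMP-2 3. Liver is rich in several of these enzymes, so the comparisons were also made without those 5 libraries. This left IL-17 si-NC 2 as the only control under IL-17, so only effect sizes are given there. Untreated si-NC, TGF-β si-IAMP-1 and TGF-β si-IAMP-2 each lost 1 library. In bulk RNA, fewer cells of a type and less RNA per cell cannot be told apart.

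In untreated si-NC CFs, the level per kilobase of exon was highest for Gstp1 (107 CPM per kb), Gstm1 (85.5) and Gstm2 (76.3), followed by Mgst1 (29.3). Gstt1 (5.64) and Gsta3 (5.46) came next and overlapped each other. Mgst3 (3.71), Gsta4 (2.85), Gsta1 (0.965) and Gsta2 (0.632) were lowest, and no other neighbours in this order overlapped. The sum of the 10 genes was 317 ± 9.21 CPM per kb (SD, n = 3), 33.6% of it from Gstp1 and 27% from Gstm1.

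**Figure D1:**
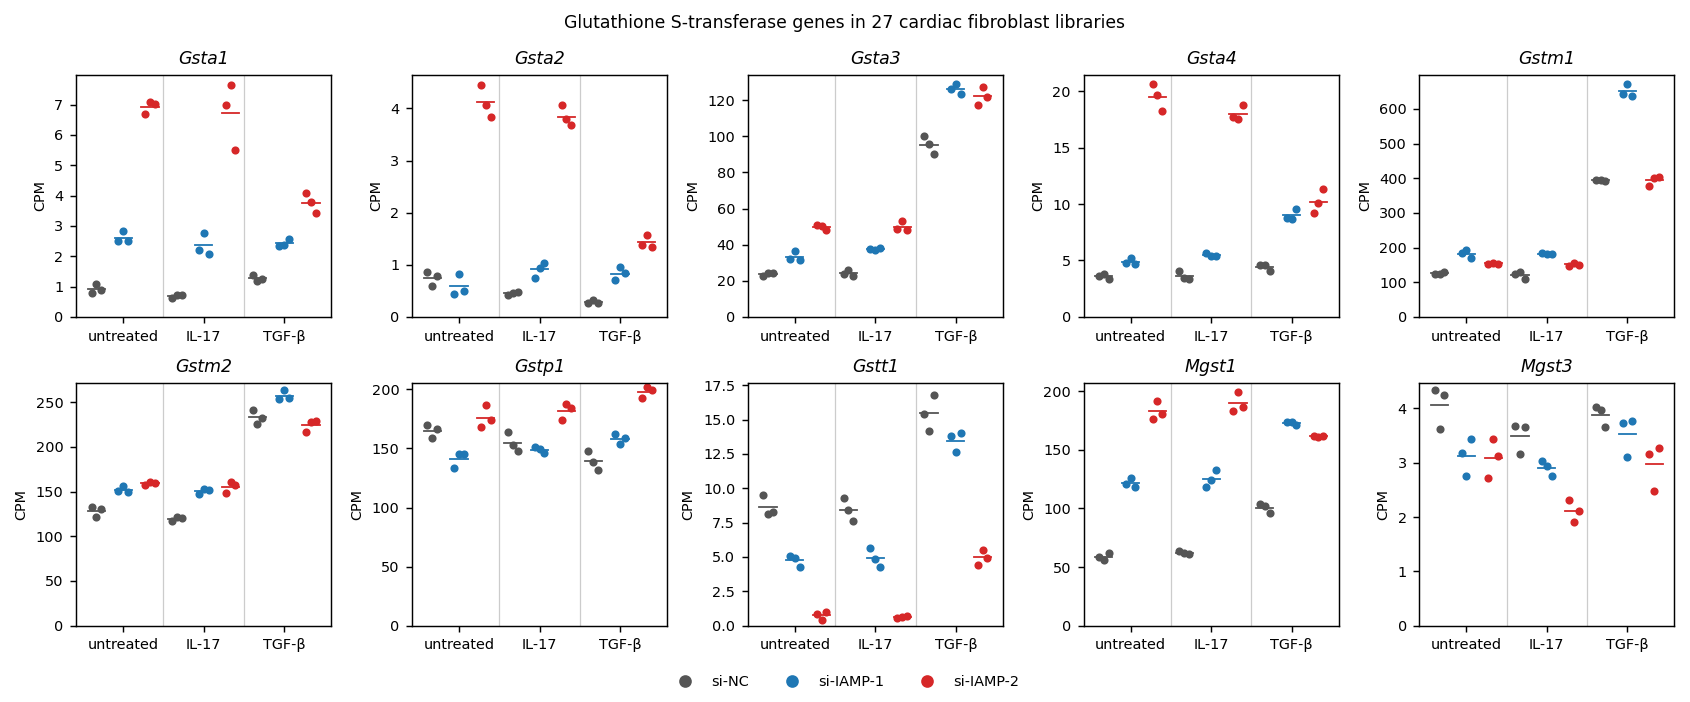
CPM of each of the 10 genes (1 panel per gene, linear axis with its own scale) in the 27 CF libraries, by condition and siRNA; points are libraries and lines are group means. The si-IAMP-2 libraries stand above si-NC for Gsta1, Gsta2, Gsta4 and Mgst1 and below it for Gstt1 in all 3 conditions.

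In untreated CFs, Gsta1, Gsta3, Gsta4, Gstm1, Gstm2 and Mgst1 rose and Gstt1 and Mgst3 fell with both siRNAs against IAMP. The fall of Mgst3 did not pass when some single libraries were left out. Gsta2 rose with si-IAMP-2 and did not pass the test with si-IAMP-1. Rises and falls are changes whose adjusted p did not exceed 0.05, and called genes also passed 2-fold. All 10 genes passed the filter on low values. With si-IAMP-1, 6 genes rose, 3 fell and 1 did neither, against 19.5% of the 19669 genes tested rising and 20.4% falling. Of the 10, 2 were called higher (Gsta1 and Mgst1; 2.15% of all genes). None was called lower by edgeR (2.61% of all genes) or by DESeq2, 3 genes having a lower level at an unadjusted p under 0.05. With si-IAMP-2, 7 rose (24.4% of all genes), 2 fell (25%) and 1 did neither. Of these, 5 were called higher (Gsta1, Gsta2, Gsta3, Gsta4 and Mgst1; 3.42% of all genes) and 1 lower (Gstt1; 7.23%). The median log2 fold change of the 10 genes was 0.33 with si-IAMP-1 and 0.67 with si-IAMP-2, against −0.02 over all genes in both comparisons, which share the si-NC libraries.

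Gsta1 measured 0.777, 1.10 and 0.890 CPM in the 3 untreated si-NC libraries, 2.51, 2.83 and 2.51 with si-IAMP-1, and 6.70, 7.10 and 7.02 with si-IAMP-2. The 3 groups did not overlap. The change was 2.82-fold with si-IAMP-1 (log2 1.496 ± 0.15 SE, adjusted p = 3.54e-07) and 7.41-fold with si-IAMP-2 (2.89 ± 0.15, adjusted p = 5.59e-11). Gsta2 was at 0.860, 0.592 and 0.778 CPM in si-NC and at 0.441, 0.820 and 0.492 with si-IAMP-1, and these groups overlapped (log2 −0.35 ± 0.24, adjusted p = 0.276). It had an adjusted p of 0.0275 and a log2 fold change of −0.68 without si-IAMP-1 replicate 2. With si-IAMP-2 it reached 4.44, 4.07 and 3.84 CPM, above all other untreated libraries (5.46-fold, adjusted p = 1.14e-07). Summed with Gm3776 and Gm10639, the copies rose by a log2 of 1.03 ± 0.13 with si-IAMP-1 and 2.86 ± 0.13 with si-IAMP-2. Gm3776 alone went from a mean of 0.288 CPM to 0.8291 and 3.39.

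Gsta4, which shares no stretch with another gene, rose more with si-IAMP-2 than with si-IAMP-1. Its levels were 3.65, 3.85 and 3.34 CPM in si-NC, 4.79, 5.18 and 4.66 with si-IAMP-1 and 20.6, 19.6 and 18.2 with si-IAMP-2. It rose 1.35-fold (log2 0.43 ± 0.09, adjusted p = 0.000817) and 5.33-fold (2.41 ± 0.09, adjusted p = 8.07e-13). Gsta3, the alpha-class gene with the highest level per kilobase in si-NC CFs, measured 22.7, 24.1 and 24.3 CPM in si-NC, 31.96, 36.5 and 31.4 with si-IAMP-1 and 51.0, 50.3 and 48.3 with si-IAMP-2. The 3 groups were apart, at 1.40-fold (adjusted p = 4.12e-06) and 2.08-fold (adjusted p = 1.55e-10).

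Mgst1, a membrane enzyme of the endoplasmic reticulum and mitochondria, was called with both siRNAs. It was at 58.3, 56.3 and 62.3 CPM in si-NC, 121, 126 and 119 with si-IAMP-1 and 176, 191 and 181 with si-IAMP-2. The change was 2.06-fold (log2 1.04 ± 0.04, adjusted p = 7.18e-12) and 3.06-fold (1.61 ± 0.04, adjusted p = 1.52e-14). In the per-length sum of the 10 genes its share went from 9.24% ± 0.320 to 15.6% ± 0.117 and 20.4% ± 0.341 (SD, n = 3 each), while that of Gstp1 went from 33.6% to 23.6% and 25.6%.

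Gstt1, the theta-class enzyme known for conjugating small halogenated compounds, moved the other way. Its levels were 9.48, 8.12 and 8.25 CPM in si-NC, 5.09, 4.93 and 4.30 with si-IAMP-1 and 0.881, 0.432 and 0.966 with si-IAMP-2. It was 1.81-fold lower with si-IAMP-1 (log2 −0.86 ± 0.19, adjusted p = 0.00181) and 11.5-fold lower with si-IAMP-2 (−3.52 ± 0.22, adjusted p = 2.41e-09). The si-IAMP-2 libraries held 49 to 111 estimated counts of it, above the 18 that 3 read pairs would give at 6 estimated counts each.

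The mu- and pi-class genes, the most abundant ones, moved by less than 1.5-fold. Gstm1 rose from 126 ± 2.06 CPM to 182 ± 11.8 with si-IAMP-1 (1.44-fold, adjusted p = 1.56e-08) and to 154 ± 1.17 with si-IAMP-2 (1.21-fold, adjusted p = 1.96e-05). Gstm2 rose 1.18-fold and 1.23-fold from 128 ± 5.89 CPM. Gstp1 fell 1.17-fold with si-IAMP-1, from 165 ± 5.70 to 141 ± 7.08 CPM (adjusted p = 0.00029), and was at 176 ± 9.44 with si-IAMP-2 (adjusted p = 0.163). Mgst3 was at 4.07 ± 0.391 CPM in si-NC, 3.12 ± 0.343 with si-IAMP-1 and 3.09 ± 0.361 with si-IAMP-2 (SD, n = 3 each). Its adjusted p was 0.0358 for si-IAMP-1, and between 0.0674 and 0.143 when si-NC 1, si-NC 3, si-IAMP-1 1 or si-IAMP-1 2 was left out. For si-IAMP-2 it was 0.0198, and between 0.0586 and 0.0869 without si-NC 1, si-NC 3 or si-IAMP-2 1. Untreated si-NC 3 is 1 of the libraries with hepatocyte transcripts, and without it the adjusted p was 0.0983 for si-IAMP-1 and 0.0586 for si-IAMP-2.

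The 3 libraries of a group lay entirely above si-NC for 6 genes and below it for 3 with si-IAMP-1, and above for 7 and below for 2 with si-IAMP-2. Over all genes tested, the shares above and below were 24.6% and 24.9% with si-IAMP-1 and 29.1% and 27.8% with si-IAMP-2.

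Other markers moved with the siRNAs. In untreated CFs the fibroblast marker sum was 11951 to 12268 CPM in si-NC, 17290 to 18160 with si-IAMP-1 and 16632 to 16864 with si-IAMP-2, with none of the 9 markers at 0. Of them, 5 rose and 2 fell with si-IAMP-1, and 3 rose and 4 fell with si-IAMP-2. Over all genes, 19.5% rose and 20.4% fell with si-IAMP-1, and 24.4% and 25% with si-IAMP-2. The cardiomyocyte sum was 90.6 to 98.2, 42.2 to 47.2 and 27.8 to 32.7 CPM, with Myh6 at 0 in 23 of the 27 CF libraries, Pln in 17, Myl2 in 15, Actc1 in 11 and Nppa in 6. Among the cardiomyocyte markers only Tnnt2 passed 0.817 CPM in CFs. The sum of 7 mural cell markers was 105 to 119, 68.8 to 74.6 and 55.1 to 67.5 CPM, and that of 8 macrophage markers 58.5 to 62.2, 59.1 to 62.3 and 75.4 to 79.7. The sum of 8 endothelial markers was 66.8 to 78.7 CPM over the 3 groups. The sum of 7 epithelial and mesothelial markers was 61.8 to 64.9, 64.8 to 65.9 and 49.0 to 51.3, and 6 erythroid markers summed to at most 1.31. Their part in the results was not tested.

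In untreated CFs, the 2 siRNAs differed from one another at several of the genes. Between si-IAMP-2 and si-IAMP-1, 6 genes were higher with si-IAMP-2 (22.7% of all genes), 2 lower (22.8%) and 2 neither. Of these, 4 were called (6.65% of all genes in either direction). Gsta1 was 2.63-fold, Gsta2 6.97-fold and Gsta4 3.96-fold higher with si-IAMP-2, and Gstt1 was 6.32-fold lower (adjusted p at most 2.82e-07). The adjusted p of Gstm2 was 0.237 and that of Mgst3 0.898.

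**Figure D2:**
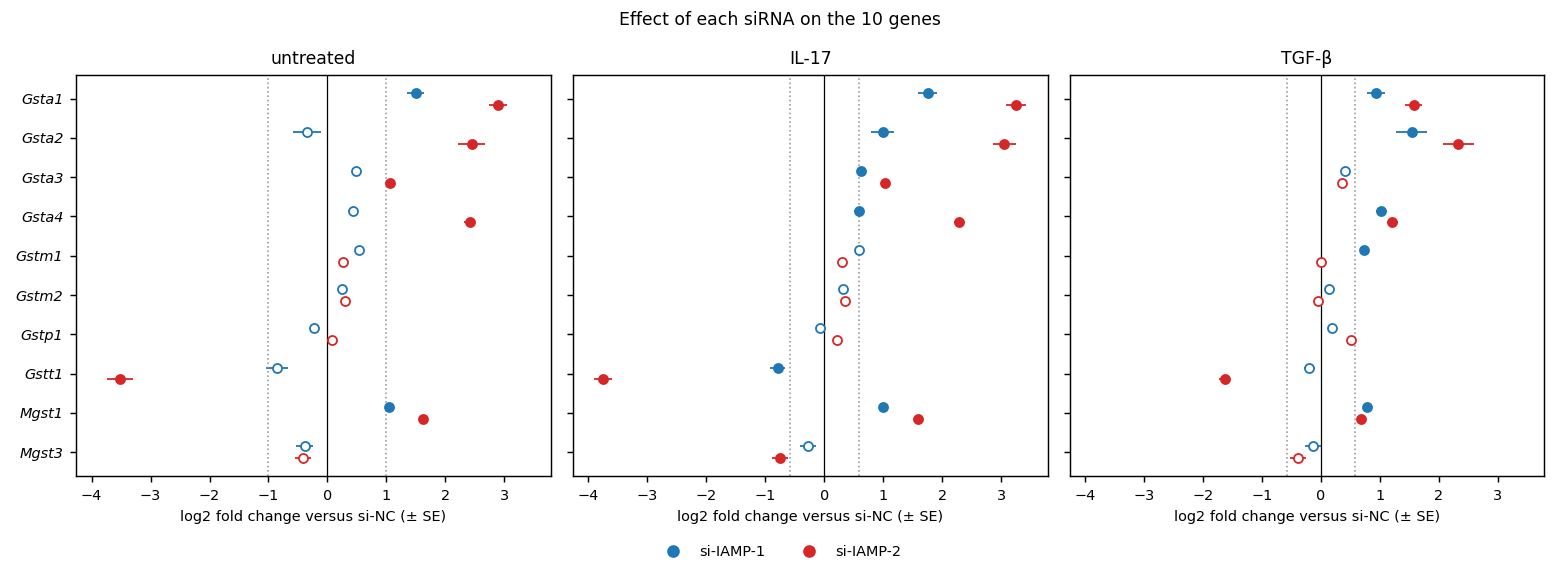
Log2 fold change (± SE) of each gene for si-IAMP-1 (blue) and si-IAMP-2 (red) against si-NC in untreated, IL-17 and TGF-β CFs, with 1 scale for all panels. Filled points passed both the adjusted p and the fold threshold, drawn as dotted lines at 2-fold (untreated) or 1.5-fold (IL-17 and TGF-β); Gstt1 with si-IAMP-2 lies at −3.52, −3.75 and −1.64.

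IL-17, a proinflammatory cytokine, was given to CFs after the siRNAs, and the same genes were compared with si-NC under it, here with a threshold of 1.5-fold. All 4 alpha-class genes, Gstm1, Gstm2 and Mgst1 rose and Gstt1 fell with both siRNAs. With si-IAMP-1, 7 genes rose (20.3% of all genes), 1 fell (21.9%) and 2 did neither. Of these, 5 were called higher (Gsta1, Gsta2, Gsta3, Gsta4 and Mgst1; 5.58% of the 19906 genes tested) and 1 lower (Gstt1; 7.97%). Between 4 and 6 were called higher when single libraries were left out, Gsta4 and Gstm1 lying close to the threshold and Gsta3 at 1.55-fold. There were 6 without IL-17 si-NC 1, si-IAMP-1 2 or si-IAMP-1 3, and 4 without si-NC 3, si-IAMP-1 1, si-IAMP-2 2 or si-IAMP-2 3. With si-IAMP-2, 8 rose (25% of all genes) and 2 fell (25.6%). Of these, 5 were called higher (Gsta1, Gsta2, Gsta3, Gsta4 and Mgst1; 8.06%), and 2 lower (Gstt1 and Mgst3; 13.7%). The median log2 fold change was 0.59 and 0.69, against −0.0026 and −0.02 over all genes.

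Gsta1 measured 0.626, 0.732 and 0.722 CPM in IL-17 si-NC, 2.22, 2.77 and 2.08 with si-IAMP-1, and 6.999, 7.64 and 5.496 with si-IAMP-2, a 3.37-fold and a 9.53-fold rise (adjusted p = 1.86e-07 and 4.20e-11). Gsta2 was at 0.426, 0.458 and 0.484 in si-NC and at 0.748, 0.948 and 1.04 with si-IAMP-1. With si-IAMP-2 it was at 4.06, 3.79 and 3.68. Here both siRNAs set it apart from si-NC, at 1.98-fold (adjusted p = 0.000429) and 8.30-fold (adjusted p = 5.18e-10). The sum of the copies rose by a log2 of 1.71 and 3.33.

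Gsta4, whose transcripts share no 50-base stretch with another gene, rose from 3.63 ± 0.416 CPM to 5.48 ± 0.143 and 18.02 ± 0.667 under IL-17. Gsta3 rose from 24.1 ± 1.55 to 37.6 ± 0.737 and 49.95 ± 2.74 CPM, and Mgst1 from 62.2 ± 1.51 to 125 ± 7.46 and 190 ± 8.74. Gstt1 was at 9.32, 8.41 and 7.63 CPM in si-NC, at 5.65, 4.88 and 4.26 with si-IAMP-1, and at 0.588, 0.596 and 0.720 with si-IAMP-2. It fell 1.73-fold and 13.5-fold (adjusted p = 5.50e-05 and 7.62e-13), and its 3 groups did not overlap. Mgst3 was at 3.67, 3.16 and 3.65 CPM in si-NC and at 2.31, 1.91 and 2.11 with si-IAMP-2, a 1.68-fold fall (adjusted p = 0.000211), and at 2.91 ± 0.147 with si-IAMP-1 (adjusted p = 0.131). Of the more abundant genes, Gstm1 and Gstm2 rose with both siRNAs, by at most 1.5-fold. Gstp1 rose 1.16-fold with si-IAMP-2 and had an adjusted p of 0.156 with si-IAMP-1, or 0.0431 without IL-17 si-NC replicate 3 (log2 −0.10).

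The libraries lay above si-NC for 7 genes and below it for 2 with si-IAMP-1 (25.9% of all genes each way), and above for 8 and below for 2 with si-IAMP-2 (29.9% and 28.3%). Between si-IAMP-2 and si-IAMP-1 under IL-17, 6 genes were higher (23.1% of all genes), 3 lower (23.1%) and 1 neither. Of these, 5 were called (15.7% of all genes). The count was 4 without si-IAMP-1 1 or si-IAMP-2 2. The called genes were Gsta1 (2.83-fold), Gsta2 (4.18-fold), Gsta4 (3.26-fold) and Mgst1 (1.51-fold) higher with si-IAMP-2, and Gstt1 (7.81-fold) lower. The fibroblast marker sum under IL-17 was 11713 to 11882 CPM in si-NC, 16349 to 17077 with si-IAMP-1 and 16789 to 17488 with si-IAMP-2, and the cardiomyocyte sum 69.7 to 76.9, 32.1 to 35.7 and 22.9 to 25.96. No cardiomyocyte marker but Tnnt2 passed 0.817 CPM in CFs. The part of all these markers in the results was not tested.

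Against untreated si-NC CFs, IL-17 went with little difference in these genes. Condition and count table cannot be told apart here, because each condition came in a table of its own. No gene was called higher (1.09% of the 21219 genes tested) or lower (0.306%) by edgeR or DESeq2, with 4 of the 10 at an unadjusted p under 0.05. Log2 fold changes ranged from −0.71 to 0.07. Over all genes, 6.61% rose and 6.96% fell. Of the 10, only Gsta2 passed the adjusted p (log2 −0.71 ± 0.22, adjusted p = 0.0299). It did not without untreated si-NC replicate 1 or 3 or any of the 3 IL-17 si-NC libraries (adjusted p 0.0570 to 0.141, log2 −0.76 to −0.59). Without the libraries with hepatocyte transcripts, which left IL-17 si-NC 2 as the only control under IL-17, the log2 was −0.67.

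The difference between the siRNA effect under IL-17 and that in untreated CFs was tested as an interaction. For si-IAMP-1, 1 gene was called (0.189% of all genes), Gsta2, whose effect was higher under IL-17 by a log2 of 1.34 ± 0.31 (adjusted p = 0.0148). It was not called without untreated si-NC 1, untreated si-IAMP-1 1 or 3, or IL-17 si-IAMP-1 3 (log2 1.18 to 1.239, adjusted p 0.0503 to 0.0582). Without the libraries with hepatocyte transcripts, which left IL-17 si-NC 2 as the only control under IL-17, the log2 was 1.30. For si-IAMP-2, none was called by edgeR or DESeq2 (0.165% of all genes), with 2 genes at an unadjusted p under 0.05. The si-IAMP-2 log2 differences ranged from −0.32 to 0.61.

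TGF-β, which drives fibroblasts toward a contractile, matrix-producing state, went with larger differences in si-NC CFs. The sum of the 10 genes per kilobase was 587 ± 12.8 CPM per kb against 317 ± 9.21 in untreated CFs (SD, n = 3 each). Relative to untreated si-NC, 7 genes rose (29.3% of all genes), 2 fell (28%) and 1 did neither. Of these, 2 were called higher (Gsta3 and Gstm1; 12.5% of the 21508 genes tested) and 1 lower (Gsta2; 9.07%). The median log2 fold change was 0.61, against 0.03 over all genes, and here too condition and table cannot be told apart.

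Gsta3 measured 100, 95.9 and 90.2 CPM under TGF-β against 22.7, 24.1 and 24.3 in untreated CFs, a 4.02-fold rise (log2 2.01 ± 0.05, adjusted p = 5.17e-20). Gstm1, an abundant mu-class enzyme, was at 396, 394 and 393 CPM against 125, 125 and 128, a 3.12-fold rise (1.64 ± 0.04, adjusted p = 8.05e-21). Its share of the per-length sum was 45.6% ± 0.822 under TGF-β and 27% ± 0.670 in untreated CFs. Gsta2 was at 0.265, 0.329 and 0.263 CPM against 0.860, 0.592 and 0.778 and fell 2.60-fold (log2 −1.38 ± 0.25, adjusted p = 3.72e-05). These values rest on 29 to 36 estimated counts per TGF-β library, where 1 read pair may count as up to 6. The sum of the 4 copies was level (log2 0.0019, adjusted p = 0.993).

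Gstm2 (1.82-fold), Gstt1 (1.79-fold) and Mgst1 (1.70-fold) also rose under TGF-β (adjusted p at most 4.89e-05), with all 3 libraries above the untreated ones. Gstp1 fell 1.19-fold, from 165 ± 5.70 to 139 ± 8.07 CPM, and its share of the sum went from 33.6% to 15.3%. Mgst3 did not pass the test (log2 −0.07 ± 0.14, adjusted p = 0.705). Gsta1 rose by a log2 of 0.45 ± 0.15 (adjusted p = 0.00962), but not without untreated si-NC replicate 1 (0.32, adjusted p = 0.0854), and the sum of the 4 copies was level (0.0019, adjusted p = 0.993). Gsta4 rose by 0.29 ± 0.09 (adjusted p = 0.0100), but not without untreated si-NC replicate 3 (0.22, adjusted p = 0.0825), 1 of the libraries with hepatocyte transcripts.

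Libraries under TGF-β lay above untreated si-NC for 7 genes and below for 2, with 33.5% and 31.0% of all genes doing so. Marker sums differed too. The macrophage sum was 155 to 163 CPM under TGF-β against 58.5 to 62.2. Of 8 macrophage markers, 4 were called higher and 1 lower (12.5% and 9.07% of all genes). The endothelial sum was 125 to 127 against 72.5 to 78.7 CPM, the mural sum 68.0 to 69.6 against 105 to 119, and the epithelial and mesothelial sum 24.5 to 29.4 against 61.8 to 64.9. The mural markers did not move together. Rgs5 (5.27-fold), Abcc9 (2.25-fold), Myh11 (1.95-fold) and Des (1.37-fold) rose, where 29.3% of all genes did. Notch3 (2.13-fold) and Cspg4 (2.00-fold) fell, where 28% of all genes did, and Kcnj8 did not pass the test. The fibroblast sum was 16681 to 17507 against 11951 to 12268 CPM and the cardiomyocyte sum 5.33 to 6.02 against 90.6 to 98.2. Of the cardiomyocyte markers, Tnnt2 reached at most 97.3 CPM in CFs and no other more than 0.817. The part of all these markers in the results was not tested.

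**Figure D3:**
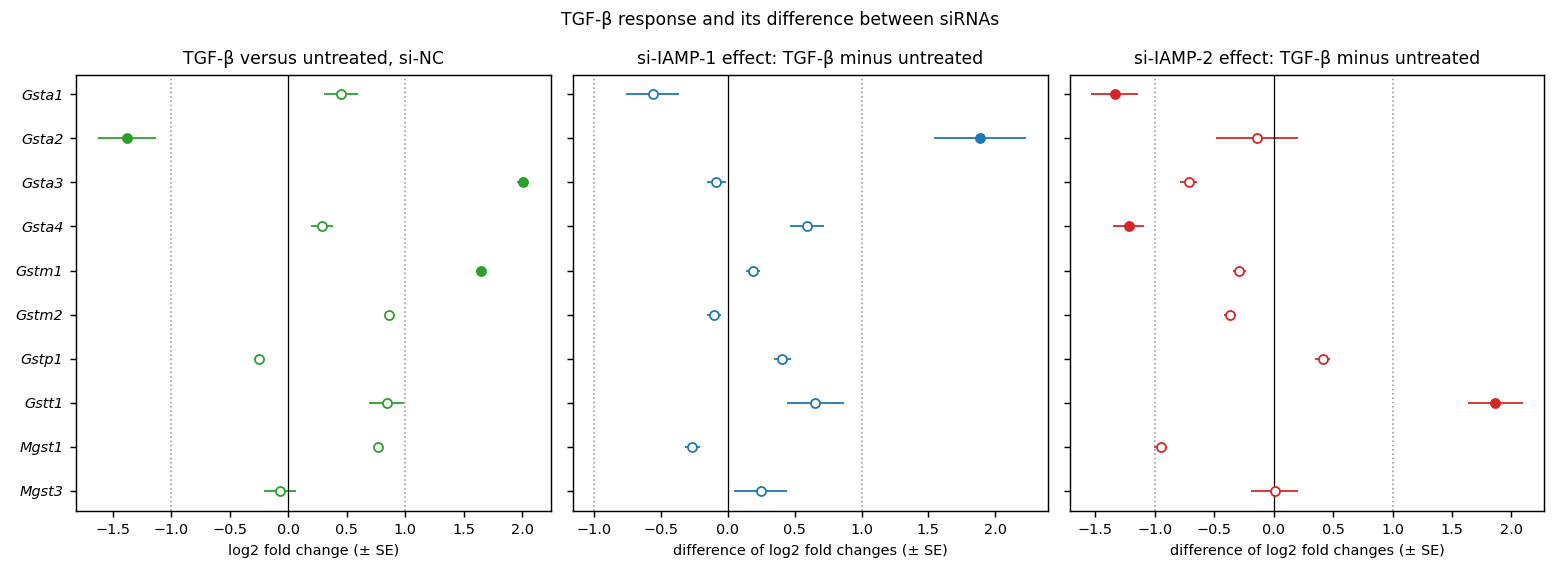
Log2 fold change (± SE) of each gene for TGF-β against untreated si-NC CFs, and the difference between each siRNA's effect under TGF-β and in untreated CFs; filled points passed an adjusted p of 0.05 and 2-fold, the dotted lines. Gsta3 (2.01) and Gstm1 (1.64) lie farthest to the right under TGF-β, and Gstt1 (1.86), Gsta1 (−1.34) and Gsta4 (−1.22) pass the threshold for si-IAMP-2.

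Within TGF-β CFs, the siRNAs were compared with si-NC at a threshold of 1.5-fold. Alpha-class genes, Gstp1 and Mgst1 rose with both, and the siRNAs parted at Gstm1 and Gstt1. With si-IAMP-1, 8 genes rose and 2 did neither, against 11.7% of all genes rising and 11.4% falling. Of these, 5 were called higher (Gsta1, Gsta2, Gsta4, Gstm1 and Mgst1; 2.45% of the 19891 genes tested). None was called lower by edgeR or DESeq2 (1.91% of all genes), with 1 gene lower at an unadjusted p under 0.05. With si-IAMP-2, 6 rose (15.1% of all genes), 2 fell (14.8%) and 2 did neither. Of these, 4 were called higher (Gsta1, Gsta2, Gsta4 and Mgst1; 2.07%) and 1 lower (Gstt1; 5.44%). The median log2 fold change was 0.56 and 0.43, against 0.0003 and 0.01 over all genes.

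Gstm1 was at 396, 394 and 393 CPM in TGF-β si-NC and at 642, 671 and 638 with si-IAMP-1, a 1.65-fold rise (log2 0.72 ± 0.03, adjusted p = 1.69e-10). With si-IAMP-2 it was at 376.8, 401 and 404 CPM, around the si-NC values (log2 0.00 ± 0.03, adjusted p = 0.987), the sign turning in 7 of the alternatives tried. Gstt1 was at 15.4, 14.2 and 16.8 CPM in si-NC and at 13.8, 12.6 and 14.0 with si-IAMP-1, just below (log2 −0.20 ± 0.09, adjusted p = 0.131). With si-IAMP-2 it was at 4.45, 5.52 and 4.95 CPM, 3.11-fold lower (log2 −1.64 ± 0.09, adjusted p = 7.44e-10).

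Gsta1 was at 1.37, 1.18 and 1.25 CPM in TGF-β si-NC, 2.35, 2.36 and 2.57 with si-IAMP-1 and 4.10, 3.77 and 3.41 with si-IAMP-2, rising 1.92-fold and 2.97-fold (adjusted p = 0.000168 and 3.79e-07). Gsta2 rose 2.91-fold and 5.02-fold, to 0.832 ± 0.126 and 1.44 ± 0.125 CPM, and the sum of the 4 copies by a log2 of 1.21 and 1.83. Gsta4 was at 4.59, 4.56 and 4.11 CPM, then 8.78, 8.67 and 9.53, and 9.24, 10.1 and 11.3. Its rise was 2.04-fold (adjusted p = 5.48e-07) and 2.32-fold (adjusted p = 4.64e-08), with both siRNAs above every si-NC library. Mgst1 rose 1.72-fold to 173 ± 1.49 CPM and 1.60-fold to 161 ± 0.213 CPM. Gsta3 rose 1.32-fold and 1.28-fold. Gstp1 rose 1.14-fold and 1.42-fold, from 139 ± 8.07 to 158 ± 4.48 and 198 ± 4.67 CPM.

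Gstm2 rose 1.10-fold with si-IAMP-1 (log2 0.14 ± 0.04, adjusted p = 0.00715), but had an adjusted p of 0.05004 and a log2 of 0.12 without TGF-β si-IAMP-1 replicate 2, 1 of the libraries with hepatocyte transcripts. With si-IAMP-2 its adjusted p was 0.299. Mgst3 had an adjusted p of 0.579 with si-IAMP-1. With si-IAMP-2 it was at 2.97 ± 0.432 CPM against 3.89 ± 0.196, with an adjusted p of 0.0473. That adjusted p was 0.0555 to 0.179 (log2 −0.44 to −0.27) without TGF-β si-NC 1, 2 or 3, si-IAMP-1 1 or 3, or si-IAMP-2 1 or 2.

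Under TGF-β, libraries lay above si-NC for 8 genes and below it for 1 with si-IAMP-1 (18.4% and 18.7% of all genes), and above for 6 and below for 2 with si-IAMP-2 (20.8% and 20%). The fibroblast marker sum was 16681 to 17507 CPM in si-NC, 18622 to 18999 with si-IAMP-1 and 19243 to 20371 with si-IAMP-2, and the macrophage sum 155 to 163, 125 to 140 and 141 to 145. Their part in the results was not tested. Between si-IAMP-2 and si-IAMP-1, 3 genes were higher (12% of all genes), 4 lower (12%) and 3 neither. Of these, 4 were called (3.96% of all genes). Gstm1 was 1.65-fold and Gstt1 2.71-fold lower with si-IAMP-2, and Gsta1 was 1.55-fold and Gsta2 1.73-fold higher. The Gsta2 call had an adjusted p of 0.0266, and of 0.0610 to 0.112 without TGF-β si-IAMP-1 1 or 3 or si-IAMP-2 1 or 2. The count was 2 without si-IAMP-2 1, and 3 without si-IAMP-1 1 or 3, si-IAMP-2 2 or the libraries with hepatocyte transcripts. Mgst1, lower by a log2 of 0.10 and not called, had an adjusted p of 0.0464, and of 0.0865 to 0.139 without any 1 of the 6 libraries compared. Without the libraries with hepatocyte transcripts it was 0.216, and that of Gsta2 was 0.0591.

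Whether the siRNA effects themselves differed between TGF-β and untreated CFs was tested as an interaction. For si-IAMP-1, 1 gene was called (2.36% of all genes): the effect on Gsta2 was higher under TGF-β by a log2 of 1.89 ± 0.34 (adjusted p = 0.000241). In the sum of the 4 copies, Gsta2 included, the difference was 0.17 ± 0.18 (adjusted p = 0.623). Below 2-fold, the effect was also higher for Gsta4 (0.59 ± 0.13), Gstp1 (0.41 ± 0.06) and Gstm1 (0.19 ± 0.05, adjusted p = 0.0129, or 0.0695 without the libraries with hepatocyte transcripts), and lower for Mgst1 (−0.27 ± 0.06). Those of Gstt1 (adjusted p = 0.0338) and Gsta1 (0.0496) did not pass when single libraries were left out. For Gstt1 these were untreated si-NC 1, si-IAMP-1 2 or 3, TGF-β si-NC 1 or 2, or si-IAMP-1 1 or 3 (adjusted p 0.0550 to 0.0904), and for Gsta1 any library but untreated or TGF-β si-NC 2 (0.0560 to 0.158). Without the libraries with hepatocyte transcripts the adjusted p was 0.0658 for Gstt1 and 0.168 for Gsta1. The Gsta1 difference had the opposite sign in the sum of the 4 copies (0.17).

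For si-IAMP-2, 3 genes were called (5.09% of all genes). The effect under TGF-β was smaller for Gsta1 (log2 −1.34 ± 0.20, adjusted p = 9.31e-06) and Gsta4 (−1.22 ± 0.13, adjusted p = 6.26e-08). The Gstt1 difference was 1.86 ± 0.23 (adjusted p = 1.92e-06), a smaller fall. Below 2-fold, Mgst1 (−0.95 ± 0.06), Gsta3 (−0.71 ± 0.07), Gstm2 (−0.37 ± 0.05) and Gstm1 (−0.29 ± 0.05) had a lower effect and Gstp1 (0.41 ± 0.06) a higher one. In the sum of the 4 alpha-class copies the difference was −1.05 ± 0.17 (adjusted p = 3.80e-05).

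**Figure D4:**
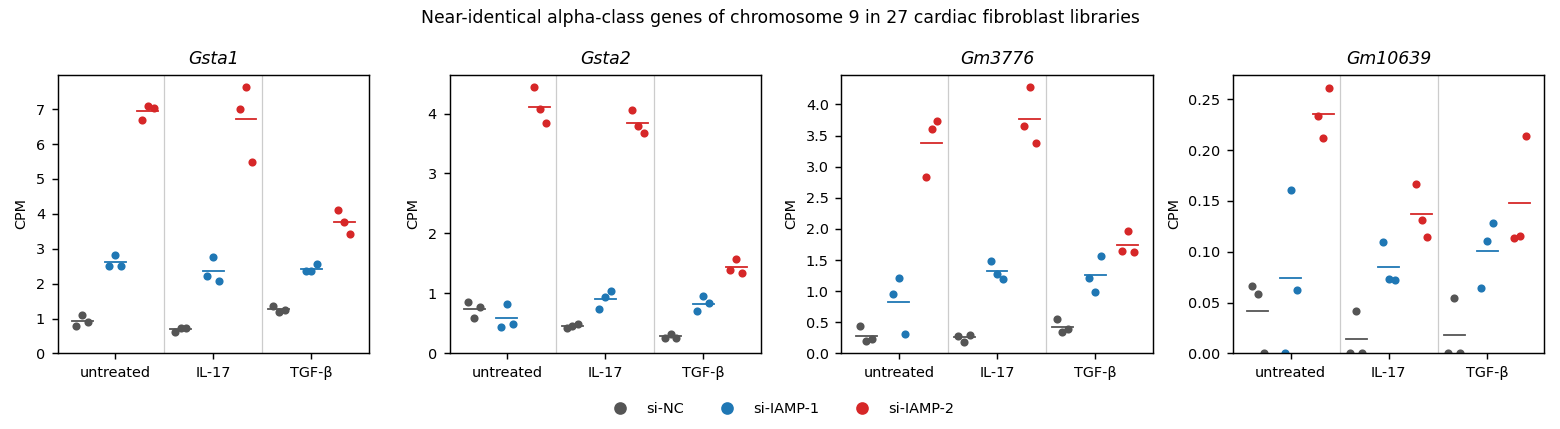
CPM of the near-identical alpha-class genes Gsta1, Gsta2, Gm3776 and Gm10639 in the 27 CF libraries (points; lines are group means; each panel has its own linear scale). Within each condition the mean of all 4 is highest with si-IAMP-2, and Gm10639 stays below 0.3 CPM.

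In hearts the 10 genes had another order of levels. Mgst3 led with 203 ± 15.6 CPM per kb in Het and 210 ± 7.01 in KO (SD, n = 4 each), against 3.71 in untreated si-NC CFs, and made up 42.9% of the sum in both groups. Gsta4 was at 39.4 CPM per kb in Het and 40.6 in KO against 2.85 in CFs, whereas Gsta3 was at 0.746 and 0.719 against 5.46. Gstm1 came second in Het hearts (120 CPM per kb), then Gstm2 (46.7), Gsta4 (39.4) and Gstp1 (37.3), of which Gstm2 overlapped Gsta4 and Gsta4 overlapped Gstp1. Mgst1 (17.7) and Gstt1 (7.04) followed, and Gsta1, Gsta3 and Gsta2 were below 1 CPM per kb, Gsta1 overlapping Gsta3. The 2 kinds of sample were counted in separate tables and were not tested against each other.

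**Figure D5:**
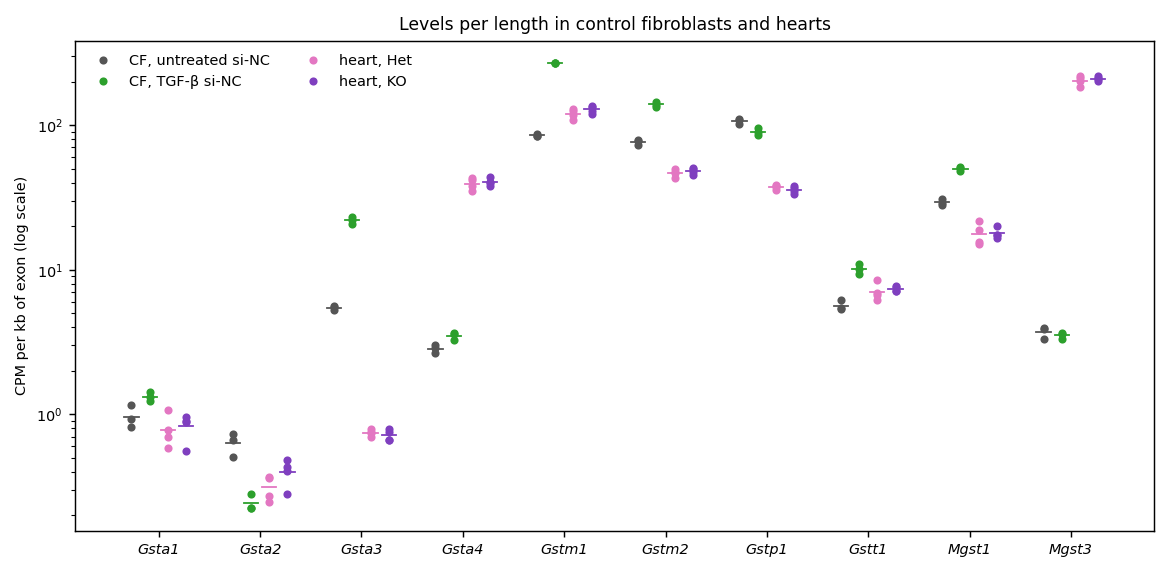
CPM per kilobase of exon (log axis) of the 10 genes in untreated si-NC CFs, TGF-β si-NC CFs, Het hearts and KO hearts; points are libraries. Mgst3 and Gsta4 are higher in hearts than in CFs, Gsta3 is lower, and the Het and KO points overlap for every gene.

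Between KO and Het hearts, no difference in these genes passed the test. Of the 10, 9 were tested, Gsta2 with 7 to 13 counts per library having been filtered out. None was called by edgeR (0% of the 16675 genes tested) or DESeq2, and none of the 9 had an unadjusted p under 0.05. Over all genes, 601 had an unadjusted p under 0.05, edgeR called 0 and DESeq2 called 2. Log2 fold changes ran from −0.06 to 0.10. Mgst3 was at 232, 220, 240 and 201 CPM in Het hearts and at 234, 221, 239 and 227 in KO hearts (log2 0.05 ± 0.06). Gsta4 was at 54.6, 48.0, 52.8 and 44.2 CPM in Het and 55.5, 51.5, 50.7 and 48.0 in KO (0.04 ± 0.07). The mu-class Gstm1 was at 173, 184, 190 and 160 against 196, 177, 199 and 183 (0.10 ± 0.06). All 10 genes overlapped between KO and Het, 1.19% of all genes lying fully above and 1.18% fully below.

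Mgst1, which rose with both siRNAs in CFs, was at 37.9, 43.5, 31.1 and 30.2 CPM in Het hearts and at 35.04, 40.1, 33.6 and 34.8 in KO hearts (log2 0.01 ± 0.11). Gstt1 was at 9.50 to 12.9 CPM in Het and 10.9 to 11.7 in KO (0.07 ± 0.09). Gstp1 (−0.06 ± 0.05), Gstm2 (0.04 ± 0.06) and Gsta3 (−0.05 ± 0.10) differed as little, and Gsta1, at 14 to 24 counts in Het and 13 to 21 in KO, had the widest error (0.08 ± 0.24). Leaving out single hearts turned the sign for Gsta1, Gsta4, Mgst1 and Mgst3, and not for the other 5 genes tested. The marker sums overlapped between KO and Het, with cardiomyocyte sums of 43248 to 45368 CPM in KO and 43475 to 46786 in Het.

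The genes around glutathione were read from lists of known members. Of 25 other genes, glutathione S-transferases and relatives such as Ptges, 22 were tested. Over all genes, 2.15% and 3.42% were called higher and 2.61% and 7.23% lower with si-IAMP-1 and si-IAMP-2 in untreated CFs, 5.58% and 8.06% higher and 7.97% and 13.7% lower under IL-17, and 2.45% and 2.07% higher and 1.91% and 5.44% lower under TGF-β. Of the 22 genes, 1 was called higher and 1 lower with each siRNA in untreated CFs. Under IL-17, 3 were called higher and 1 lower with si-IAMP-1, and 3 and 2 with si-IAMP-2. Under TGF-β, 2 were called higher and 0 lower with si-IAMP-1, and 1 and 1 with si-IAMP-2. Gm3776 was called higher with both siRNAs in all 3 conditions (log2 1.52 and 3.53 untreated, 2.34 and 3.85 under IL-17, 1.54 and 2.02 under TGF-β). Its coding sequence is identical to that of Gsta1 at 99.7% of aligned bases, so its rise cannot be fully told apart from that of Gsta1. Under IL-17, Ptges, a prostaglandin E synthase of the microsomal family, rose by 0.73 and 1.08 and Gstm6 fell by 1.29 and 1.18 on the log2 scale. Under TGF-β in si-NC CFs, 10 of the 22 were called higher than in untreated CFs and 1 lower, with a median log2 fold change of 1.00, against 12.5% and 9.07% of all genes and a median of 0.03.

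Of 15 genes for the synthesis and supply of glutathione 14 were tested. Gclm, the modifier subunit of glutamate-cysteine ligase, rose by a log2 of 1.13 and 1.07 in untreated CFs, 1.09 and 1.07 under IL-17 and 1.17 and 1.00 under TGF-β. Called higher and lower were 2 and 1 genes with each siRNA in untreated CFs. Under IL-17 the counts were 4 and 2 with si-IAMP-1 and 5 and 3 with si-IAMP-2, and under TGF-β 4 and 1 and then 6 and 0, against 2.15% to 3.42% of all genes higher and 2.61% to 7.23% lower in untreated CFs, 5.58% to 8.06% and 7.97% to 13.7% under IL-17, and 2.07% to 2.45% and 1.91% to 5.44% under TGF-β. Under TGF-β, Slc7a11, the cystine transporter, rose by 1.15 and 1.39 and Gclc, the catalytic subunit, by 0.95 and 1.06. Under IL-17, Ggt1, which breaks down extracellular glutathione, rose by 1.39 and 0.83, and Cbs, of cysteine synthesis, fell by 1.07 and 1.43.

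Among 15 tested genes of 16 for glutathione peroxidases and reduction, Prdx6, a peroxidase that uses glutathione, rose by a log2 of 1.19 and 0.86 under IL-17 and 0.60 and 0.75 under TGF-β. Esd, which releases glutathione from S-formylglutathione, rose by 0.61 and 1.44 and by 0.59 and 0.90. The counts called higher and lower with si-IAMP-1 and then si-IAMP-2 were 1 and 0, then 1 and 2, in untreated CFs. They were 2 and 0, then 3 and 3, under IL-17, and 2 and 0, then 2 and 1, under TGF-β. These stand against 2.15% to 3.42% of all genes higher and 2.61% to 7.23% lower in untreated CFs, 5.58% to 8.06% and 7.97% to 13.7% under IL-17, and 2.07% to 2.45% and 1.91% to 5.44% under TGF-β, as do the next counts. Of 14 genes for export of conjugates and their further breakdown, 12 were tested in untreated and IL-17 CFs and 13 under TGF-β. In the same order, 0 and 0, then 1 and 0, were called in untreated CFs, 1 and 0, then 3 and 2, under IL-17, and 2 and 0, then 4 and 0, under TGF-β. Abcc1, a pump for glutathione conjugates, rose by 0.67 and 0.86 under IL-17 and 0.76 and 0.92 under TGF-β, and Abcc4 by 0.80 and 0.67 under TGF-β.

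Of 19 genes of xenobiotic and electrophile sensing, 18 were tested in untreated and IL-17 CFs and 19 under TGF-β. Hmox1, the inducible heme oxygenase, rose in all 3 conditions, by a log2 of 2.62 with si-IAMP-1 and 1.06 with si-IAMP-2 in untreated CFs, 2.65 and 0.97 under IL-17 and 2.09 and 1.244 under TGF-β. The counts called higher and lower were 2 and 0, then 3 and 1, in untreated CFs, 4 and 1, then 9 and 2, under IL-17, and 5 and 0, then 6 and 0, under TGF-β, against 2.15% to 3.42% of all genes higher and 2.61% to 7.23% lower in untreated CFs, 5.58% to 8.06% and 7.97% to 13.7% under IL-17, and 2.07% to 2.45% and 1.91% to 5.44% under TGF-β. Srxn1, which reduces overoxidised peroxiredoxins, rose by 1.11 and 1.49 under IL-17 and 0.90 and 1.17 under TGF-β. Ahrr, the repressor of the aryl hydrocarbon receptor, rose by 1.16 and 1.10 in untreated CFs, and Aldh3a1, an aldehyde dehydrogenase, by 1.58 and 1.23 under TGF-β. In hearts none of these 5 lists held a gene that passed the test between KO and Het, and 0% of the 16675 genes tested did.

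Across the 27 CF libraries, the genes fell along different lines. Pearson's r of log2 CPM was 0.922 between Gsta1 and Gsta4, 0.917 between Gsta1 and Mgst1, 0.968 between Gstm1 and Gstm2 and 0.972 between Gsta3 and Gstm2. Gstt1 ran against Gsta2 (−0.897) and Gsta1 (−0.801). The libraries of a group and the siRNAs and conditions are common to all these points, so the values are descriptions. Among the 13330 genes averaging 1 CPM or more, the closest patterns to Gsta4 were those of Pir (0.979) and G6pdx (0.972), and to Gsta1 those of Anpep (0.980) and Mrfap1 (0.974). Gsta2 was closest to Gss (0.950) and Wdr44 (0.947), Gsta3 to Npc2 (0.991) and Aup1 (0.989), and Gstm1 to Gstm3 and Ei24 (0.987 each). For Gstm2 they were Magi1 (0.988) and Bsg (0.987), for Gstp1 Gstp2 (0.892) and Hsd11b1 (0.824), and for Gstt1 Ogn (0.978) and Nt5dc2 (0.975). For Mgst1 they were Wbp1l (0.981) and Slc8b1 (0.978), and for Mgst3 Gata6 (0.878) and Nacc2 (0.876). Gstp1 and Gstp2 share sequence, as do Gstm1 and Gstm3.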

How the data were processed

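RNA-Seq was made from oligo(dT)-selected RNA of 27 CF libraries and 8 hearts. The authors trimmed reads with Cutadapt 3.7, checked them with FastQC 0.11.9, aligned them to GRCm38 with HISAT2 2.2.1 and quantified genes with StringTie 2.1.4; the submitters' processing notes also name DESeq2 1.24.0, and the strand setting was not given in the sources used here. The deposited CF tables hold estimated counts in whole numbers, and the most frequent value of genes seen in 1 library was 6, so that 1 read pair may count as up to 6, and the deposited heart table holds read counts; neither is normalized. Low genes therefore rest on fewer read pairs than their values show.

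Groups came from the sample labels. Each comparison was fitted on the whole table with edgeR 4.0.16 (R 4.3.3; TMM, filterByExpr, robust quasi-likelihood test) and adjusted by Benjamini-Hochberg over all genes tested. siRNAs were compared within the 9 libraries of a condition; conditions and interactions in 1 fit of 18 libraries with 6 groups; KO and Het in 8 hearts. Called genes had an adjusted p of at most 0.05 and passed 2-fold (1.5-fold for siRNAs under IL-17 or TGF-β). CPM used TMM factors over the CF libraries and, separately, the hearts; exon lengths were from GENCODE vM21, which held 55227 of the 55487 gene IDs. DESeq2 1.42.0, RLE factors, other filters and thresholds, a replicate block, single libraries left out, values divided by 6 and summed near-identical genes were alternatives. Scripts were tested on simulated data.

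All 10 genes are named. Of the lists, genes called with both siRNAs in 1 direction in a condition were named, at most the 3 with the largest mean change per list and condition, and for each of the 10 genes the 2 others with the most similar CF pattern (Pearson's r of log2 CPM, prior count of 2). The genes and lists were chosen with earlier results of these data known. No source states that replicates came from separate cultures, so p-values for CFs measure the spread between libraries, which may be technical. No 2 libraries of a group agreed within sampling noise.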

Additional observations from a re-analysis of the deposited data

Results flagged for a closer look

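The siRNA effect on 5 occasions differed between conditions by an interaction test with an adjusted p of at most 0.05 and a 2-fold difference. For si-IAMP-1, the effect on Gsta2 was higher by a log2 of 1.34 under IL-17 and of 1.89 under TGF-β than in untreated CFs. For si-IAMP-2, the differences between TGF-β and untreated CFs were −1.34 for Gsta1, −1.22 for Gsta4 and 1.86 for Gstt1. Gsta1 and Gsta2 share most of their coding sequence with other genes, whereas Gsta4 and Gstt1 share no 50-base stretch. In the sum of Gsta1, Gsta2, Gm3776 and Gm10639, the TGF-β difference was 0.17 for si-IAMP-1 (adjusted p = 0.623) and −1.05 for si-IAMP-2. In 20 groups of 4 hearts, 2 for each of the 10 genes, no library stood apart from the others by Dixon's test.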

How the results depend on the processing

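The numbers of genes called were within 1.5 times of those reported, in every comparison, with DESeq2, RLE factors, both other filters and the replicate block. The replicate block moved 1 count, from 5 to 6 genes higher for si-IAMP-1 under IL-17. Same-numbered libraries did not deviate together (median r 0.00555, −0.0613 and −0.0450 in untreated, IL-17 and TGF-β CFs), so no pairing by number was detected. This does not show whether a number marks a shared culture or batch. At 1.5-fold, 1 gene was called lower for si-IAMP-1 in untreated CFs and 1 lower for IL-17 in si-NC; 5 were called higher for TGF-β in si-NC, and 3 and 5 in the TGF-β interactions of si-IAMP-1 and si-IAMP-2. At 2-fold, 1 was called higher and 0 lower for si-IAMP-1 under IL-17, 1 lower for si-IAMP-2 under IL-17, 2 higher for si-IAMP-1 under TGF-β and 1 between the siRNAs under TGF-β. The IL-17 interaction of si-IAMP-1 gave 0 genes with values divided by 6 and with only the groups compared. Leaving out the libraries with hepatocyte transcripts was chosen after seeing the data. It left IL-17 si-NC 2 as the only control under IL-17, and the Gsta2 difference was 1.30. The cause was not tested.

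Leaving out single libraries gave 4 to 6 genes higher for si-IAMP-1 under IL-17 and 4 to 5 called between the siRNAs there. It gave 2 to 4 between the siRNAs under TGF-β and 0 to 1 for the IL-17 interaction of si-IAMP-1. The other counts did not move: in untreated CFs 2 and 0 (higher and lower) for si-IAMP-1, 5 and 1 for si-IAMP-2 and 4 between them, under IL-17 1 lower for si-IAMP-1 and 5 and 2 for si-IAMP-2, under TGF-β 5 and 0 and then 4 and 1, and 0 and 0 for IL-17, 2 and 1 for TGF-β, 0, 1 and 3 for the other interactions and 0 in hearts.

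The log2 fold change of Gstm1 with si-IAMP-2 under TGF-β turned negative with DESeq2 (−0.003469), RLE factors (−0.003471), only the groups compared (−0.01176), without the libraries with hepatocyte transcripts (−0.01879) and without TGF-β si-NC 3, si-IAMP-2 2 or si-IAMP-2 3 (range over single libraries −0.01869 to 0.0316). That of Gsta1 for the TGF-β interaction of si-IAMP-1 became 0.1661 in the summed copies. In hearts, signs turned for Gsta1 without Het d or KO a (−0.04189 and −0.0004306; range to 0.2616), Gsta4 without Het d (range −0.01194 to 0.08923), Mgst1 without Het c, Het d or KO b (range −0.06562 to 0.1188) and Mgst3 without Het d (range −0.003229 to 0.08189). Depth limits Gsta1 and Gsta2 most, which held 7 to 24 counts in hearts.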
